A study of Mus musculus with 12 samples.

Results

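The comparison described here is the dependence of the Per2 effect on the fat depot: the difference between mice lacking Per2 and mice with an intact gene in brown adipose tissue (BAT), minus the same difference in white adipose tissue (WAT). It used 12 of the 12 arrays of the series, grouped by title, and 19933 genes, each represented by the probe set with the highest mean among those that the authors tested and that name exactly 1 gene. The value of a gene is called its interaction below and is given on the log2(intensity + 16) scale. A positive interaction means that the difference KO minus WT was higher in BAT than in WAT, and a negative one that it was lower in BAT than in WAT.

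Total RNA was hybridised to 1-colour Affymetrix arrays, with 3 biological replicates in each of 4 groups and 1 array per replicate. The groups were WAT of per2+/+ mice (WT), WAT of Per2-/- mice (KO), BAT of per2+/+ mice and BAT of Per2-/- mice. All mice were males aged 20 weeks on ad libitum chow under 12 h light and 12 h dark. The labels give the genotype of the whole animal and no tissue-specific deletion, they do not say which fat pad the WAT came from, and are silent on whether equally numbered WAT and BAT arrays share an animal. No source used here states the hour at which tissue was taken.

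The protein encoded by Per2 is a clock repressor that, with cryptochromes, restrains transcription driven by CLOCK and BMAL1 at E-box elements, and PER2 protein has also been found in complexes with nuclear receptors such as PPARγ. White fat stores triglyceride and secretes adipokines, whereas brown fat oxidises fatty acids and dissipates the proton gradient of its many mitochondria as heat through the uncoupling protein UCP1. Brown-fat genes can also be switched on in white fat depots, in cells known as beige adipocytes.

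The tissue labels were checked against marker genes. Lep and Retn, adipokines of white fat, averaged 866 and 3473 intensity units in WAT of WT against 101 and 322 in BAT of WT, and Ucp1 averaged 10796 in BAT of WT against 6.05 in WAT of WT. The median gene had an intensity of 85.7 to 89.0 on WAT arrays of WT, 81.0 to 88.3 on WAT arrays of KO, 66.0 to 70.3 on BAT arrays of WT and 67.4 to 68.4 on BAT arrays of KO. Replicate 3 of WAT of KO stood apart: its rank correlation with the other arrays of its group was at most 0.956, against at least 0.98 within each of the other 3 groups, and its correlations with BAT arrays were the highest of any WAT array, at 0.886 to 0.897. Counts of called list members, and medians that change sign, are given without this array as well, a setting chosen after seeing the data. With 3 arrays per group the median standard error of an interaction was 0.18, and p-values measure the spread between these arrays.

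Promoters are shown for 6 genes: the leading gene of each pattern called in 1 depot alone, that of the opposite pattern, and the gene with the largest change common to both depots. The windows run from 250 bases before to 50 bases after the start of each gene and come from RefSeq on GRCm38.p6, 5′ to 3′ on the strand of the gene. Capitals mark AGGTCA, the nuclear receptor hexamer, read on either strand. The E-box CACGTG, the D-box TTATGTAA and the PPAR element (a direct repeat of the hexamer with 1 base between) were searched on both strands as well and are in none of the 6 windows. They belong to Ucp1 (higher in WAT alone, chr8:83290098-83290397, plus strand), Klrb1c (lower in WAT alone, chr6:128788592-128788891, minus strand), Fbp1 (higher in BAT alone, chr13:62888233-62888532, minus strand), Anxa8 (lower in BAT alone, chr14:34085729-34086028, plus strand), Haus4 (opposite in the depots, chr14:54554312-54554611, minus strand) and Gdpd3 (higher in both depots, chr7:126766164-126766463, plus strand).
Ucp1: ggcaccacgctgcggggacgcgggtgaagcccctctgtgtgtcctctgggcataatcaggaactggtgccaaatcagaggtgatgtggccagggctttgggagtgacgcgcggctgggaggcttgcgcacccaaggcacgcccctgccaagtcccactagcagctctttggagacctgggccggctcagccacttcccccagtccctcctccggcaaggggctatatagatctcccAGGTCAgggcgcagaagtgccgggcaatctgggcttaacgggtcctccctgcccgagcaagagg
Klrb1c: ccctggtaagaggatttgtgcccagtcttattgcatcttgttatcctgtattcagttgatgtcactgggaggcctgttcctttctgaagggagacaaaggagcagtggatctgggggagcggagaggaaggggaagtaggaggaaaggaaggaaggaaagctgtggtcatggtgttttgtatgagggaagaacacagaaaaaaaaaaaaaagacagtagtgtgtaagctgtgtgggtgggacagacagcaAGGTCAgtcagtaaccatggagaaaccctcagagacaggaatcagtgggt
Fbp1: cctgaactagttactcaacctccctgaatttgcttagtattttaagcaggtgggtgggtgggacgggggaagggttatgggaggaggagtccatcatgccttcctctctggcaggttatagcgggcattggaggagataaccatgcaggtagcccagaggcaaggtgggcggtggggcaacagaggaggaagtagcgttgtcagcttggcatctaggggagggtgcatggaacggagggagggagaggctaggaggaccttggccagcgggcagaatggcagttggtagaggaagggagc
Anxa8: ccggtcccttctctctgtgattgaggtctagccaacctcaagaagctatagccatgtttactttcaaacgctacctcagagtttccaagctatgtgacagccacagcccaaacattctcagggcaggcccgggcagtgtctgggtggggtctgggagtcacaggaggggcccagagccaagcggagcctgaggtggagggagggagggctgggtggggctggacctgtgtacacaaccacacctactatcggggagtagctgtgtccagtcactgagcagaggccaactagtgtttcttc
Haus4: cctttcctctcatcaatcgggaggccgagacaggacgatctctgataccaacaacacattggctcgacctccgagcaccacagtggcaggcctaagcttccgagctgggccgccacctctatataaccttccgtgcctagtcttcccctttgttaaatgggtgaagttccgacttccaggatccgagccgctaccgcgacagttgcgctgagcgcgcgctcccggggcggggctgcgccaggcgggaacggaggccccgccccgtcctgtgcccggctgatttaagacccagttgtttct
Gdpd3: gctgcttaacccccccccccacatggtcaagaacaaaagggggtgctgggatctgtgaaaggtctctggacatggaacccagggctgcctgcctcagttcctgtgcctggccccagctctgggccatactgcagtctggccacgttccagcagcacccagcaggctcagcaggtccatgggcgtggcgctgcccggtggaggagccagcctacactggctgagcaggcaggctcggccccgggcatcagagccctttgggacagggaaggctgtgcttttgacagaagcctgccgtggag

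The effect of Per2 loss differed between the depots for 118 genes by limma at an adjusted p under 0.05, which is 0.592% of the 19933 genes tested. The interaction was positive for 63 of them and negative for 55. Of the 118, 87 differed by at least 2-fold and 26 by at least 4-fold, and the smallest difference called was 0.64 on the log2 scale. Before adjustment, 1885 genes had a p under 0.05. Over all genes the median interaction was 0.03. In the separate depots, 482 genes were called between the genotypes in WAT (2.42%) and 343 in BAT (1.72%). Those counts were 225 to 316 in WAT without replicate 1, 2 or 3 of WAT of WT, 165 to 223 in BAT without replicate 2 or 3 of BAT of WT or replicate 1, 2 or 3 of BAT of KO, and 876 and 1033 without replicate 3 of WAT of KO. No WAT array enters the BAT difference itself. The 4 groups share 1 estimate of the spread of each gene, so the calls in BAT depend on the WAT arrays too. The count of 118 rested on the arrays used. Without replicate 3 of WAT of KO it was 372, all 118 among them, and it lay between 59 and 76 without replicate 1, 2 or 3 of WAT of WT (72, 71 and 59), replicate 1 of BAT of WT (76) or replicate 1, 2 or 3 of BAT of KO (65, 59 and 68). Of the 43 called genes named by rule below, 28 stayed called whichever array was left out and 15 were lost without at least 1 array, with interactions that kept their sign. With all arrays kept, 15 of the 43 lost the call under at least 1 other log-scale setting. The other 28 kept it under every such setting in which they were fitted. Not every setting fitted all 43: the brighter genes alone held 29 of them. Genes differing under 2-fold between the depots in WT held 13. A constant of 1 in place of 16 lost 10 (Krt23, Mcoln3, Rimklb, Cfap20dc, Rnf150, BC018473, Apobec3, Trim12a, Prim1 and Suclg1), and a constant of 64 lost 4 (Elovl3, Rnf150, BC018473 and Crp).

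The 118 genes were sorted by which depot carried a called genotype difference. In 33 the genes were higher in KO in WAT alone, in 35 lower in WAT alone, in 19 higher in BAT alone and in 17 lower in BAT alone. Another 3 were called in opposite directions in the depots, 7 in the same direction by unequal amounts, and 4 in neither depot. The size of each pattern rested on single arrays as well. Without replicate 3 of WAT of KO there were 108 genes higher and 94 lower in WAT alone, 74 higher and 47 lower in BAT alone, 14 opposite, 23 in the same direction and 12 in neither. Leaving out any 1 of the other 11 arrays gave 14 to 38 and 21 to 35 in WAT alone, 11 to 20 and 5 to 13 in BAT alone, 1 to 5 opposite, 2 to 5 in the same direction and 0 to 4 in neither by limma (1885 genes had an unadjusted p under 0.05 with all arrays). The plot of both genotype differences per gene shows these patterns.

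**Figure D1:**
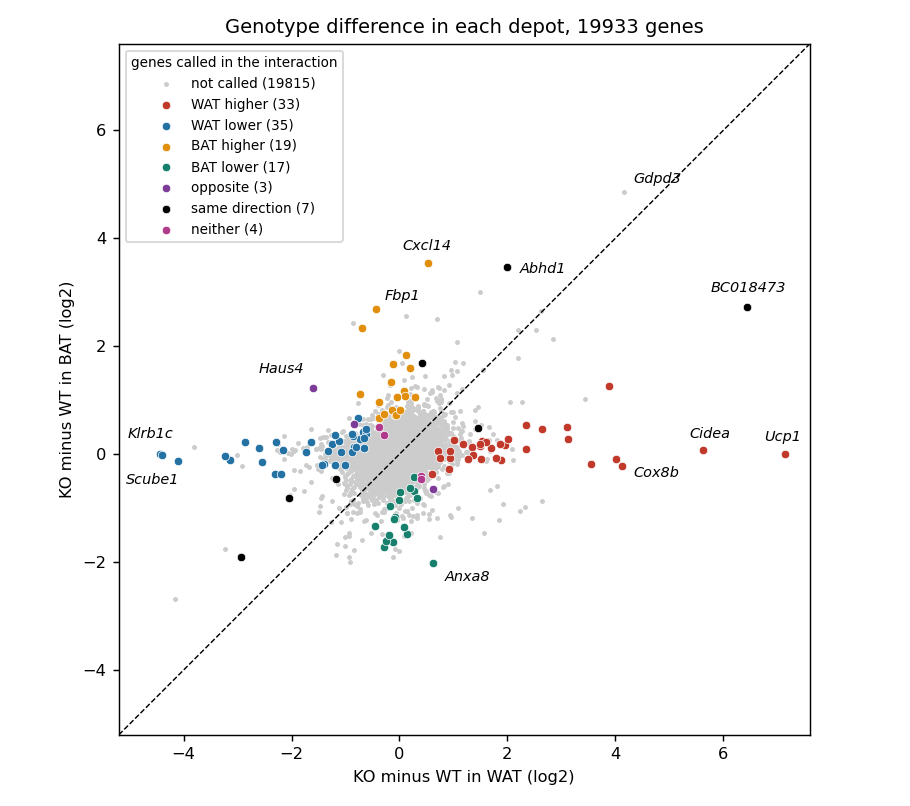
Difference KO minus WT in WAT (x axis) and in BAT (y axis) for each of 19933 genes, as log2 differences, with the 118 genes called in the interaction coloured by pattern and the dashed line marking equal differences. Ucp1 lies farthest to the right (7.15 in WAT, 0.01 in BAT), Klrb1c and Scube1 lie at the left, Fbp1 and Cxcl14 above, and Gdpd3, which was not called, close to the dashed line.

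Per2 itself showed no called depot dependence. Its intensity was 116, 99.5 and 122 in WAT of WT, 116, 108 and 172 in WAT of KO, 174, 158 and 163 in BAT of WT and 138, 151 and 158 in BAT of KO. The genotypes overlapped in WAT, and in BAT the KO arrays were all slightly below the WT arrays (difference -0.14, adjusted p = 0.773). The interaction was -0.32 (95% interval -0.76 to 0.11, limma adjusted p = 0.665). No source used here places its probes relative to the deleted sequence, so the values do not check the genotype labels.

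Genes of brown-fat heat production led the pattern of higher expression in WAT alone. Ucp1, the uncoupling protein, had intensities of 6.34, 7.05 and 4.76 in WAT of WT, 2554, 2665 and 4449 in WAT of KO, 10810.3, 11144 and 10433 in BAT of WT and 10517, 10961 and 11114 in BAT of KO. Every KO array of WAT was far above every WT array, whereas the BAT arrays overlapped. The interaction of Ucp1 was -7.14 (SE 0.24, adjusted p = 5.62e-08), and the gap BAT minus WAT was 8.94 in WT and 1.80 in KO. Ucp1 in WAT of WT lay below the added constant of 16, so the size of its difference is set in part by that constant: it was -8.79 with a constant of 1 and -5.50 with 64, both called. Genes this dim in 1 group share that limit, and values from the 2 constants were -6.77 and -4.11 for Cidea, -5.06 and -2.86 for Fabp3, and -4.70 and -1.46 for Otop1, all called. In BAT, Ucp1 ranked 5 or 6 from the top among all genes of an array, whose highest gene reached 19369 to 20949. Cidea, which coats lipid droplets, went from 10.4, 12.2 and 8.29 in WAT of WT to 1114, 1051 and 1822 in KO. In BAT it stood at 6404, 6296 and 5908 in WT and 6415, 6414 and 6759 in KO. All KO arrays were above all WT arrays in both depots, but the BAT difference was 0.07 (adjusted p = 0.92) beside 5.63 in WAT, and the interaction was -5.56 (adjusted p = 4.44e-07).

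Cytochrome c oxidase subunits, a fatty acid carrier and a proton channel followed. Cox8b and Cox7a1, cytochrome c oxidase isoforms shared by brown fat and striated muscle, had interactions of -4.36 (adjusted p = 5.29e-05) and -3.73 (1.2e-05). Cox8b measured 26.6, 58.1 and 39.3 in WAT of WT, 766, 807 and 1446 in WAT of KO, 7251, 8024 and 6645 in BAT of WT and 5774, 6430.2 and 6540.0 in BAT of KO. Its BAT arrays were lower in KO than in WT on every array, by a log2 difference of -0.22 that was not called (adjusted p = 0.777). Fabp3, a fatty acid carrier of oxidative tissues, measured 13, 11.7 and 18 in WAT of WT and 347, 425 and 704 in WAT of KO, and 4070.1, 4869.9 and 3615 in BAT of WT and 3648, 4308 and 3813 in BAT of KO. Its groups were apart in WAT and overlapped in BAT (interaction -4.10, adjusted p = 3.48e-05). Otop1, a proton channel, went from 2.01, 11.2 and 2.99 to 125, 155 and 237 in WAT and from 1316, 1257 and 1328 to 1541, 1573 and 1653 in BAT. Here the KO arrays were the higher ones in both depots, but the BAT difference of 0.29 was small beside the WAT difference of 3.12 (interaction -2.83, adjusted p = 0.000576).

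Elovl3, an elongase of very long fatty acids, and Pdk4, the kinase that shuts pyruvate dehydrogenase, also had positive differences in both depots. Elovl3 went from 0.00642, 2.24 and 0.0102 to 188, 154 and 422 in WAT and from 782, 1053 and 990.4 to 2279, 1822 and 2799 in BAT, with no overlap in either. Its difference was 3.89 in WAT and 1.26 in BAT (adjusted p = 0.0562 in BAT), and its interaction of -2.63 (adjusted p = 0.0147) was lost without replicate 3 of WAT of WT or replicate 2 of BAT of KO (highest adjusted p over the arrays left out 0.0534). With a constant of 64 it was -0.98 and not called (adjusted p = 0.38), and with a constant of 1 it was -6.0 (adjusted p = 0.00375). Pdk4 went from 88.2, 81.9 and 67.7 to 637, 660.3 and 1197 in WAT and from 3561, 3548 and 3451 to 5064, 5089.9 and 4881 in BAT. Again the arrays did not overlap in either depot, and the log2 difference was 3.10 in WAT against 0.51 in BAT (interaction -2.59, adjusted p = 0.00102). On untransformed intensities Elovl3, Pdk4 and Otop1 had a larger difference in BAT than in WAT, by 1104, 739 and 122 units, and neither these genes nor Ucp1 were called (adjusted p = 0.13, 0.166, 0.456 and 0.75). Ucp1 kept its negative sign on that scale (-3148 units). Cidea, Cox8b, Fabp3 and Cox7a1 also kept theirs and were not called (adjusted p = 0.393, 0.166, 0.583 and 0.0991). The called negative interactions of these genes are statements about fold changes.

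Of 26 measured brown-fat genes, 14 had a called negative interaction and 0 a called positive one, against 0.276% and 0.316% of all genes. This list, like the others below, was chosen with earlier results of these data known, so such counts are a description and no separate support. The list's median interaction was -1.20, beside 0.03 over all genes. Between the genotypes, 18 of the 26 rose in WAT of KO and 0 fell (1.27% of all genes rose), while in BAT 1 rose, Slc27a2, and 0 fell (0.908% of all genes rose). The called members beyond those above were Acot11, an acyl-CoA thioesterase (-2.17), Kcnk3, a potassium channel (-1.75), Letmd1, a mitochondrial inner membrane protein (-1.38), Slc25a20, the carnitine-acylcarnitine carrier (-1.30), Plin5, a droplet protein at mitochondria (-1.28), Slc27a2, an acyl-CoA synthetase (-0.97), and Pank1, a kinase of coenzyme A synthesis (-0.73). Dio2, which activates thyroid hormone and rose in WAT by 2.27, was not called in the interaction (-1.29, 95% interval -2.28 to -0.31, adjusted p = 0.355), nor was Ppara, the nuclear receptor of fatty acid oxidation (-1.03, adjusted p = 0.156). The regulators Ppargc1a, Prdm16 and Zic1 had interactions of -0.02, -0.15 and -0.27 and were not called in either depot. Without replicate 3 of WAT of KO the list had 16 called members, all negative, and a median of -0.89, with 0.893% of all genes called negative in that fit.

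**Figure D2:**
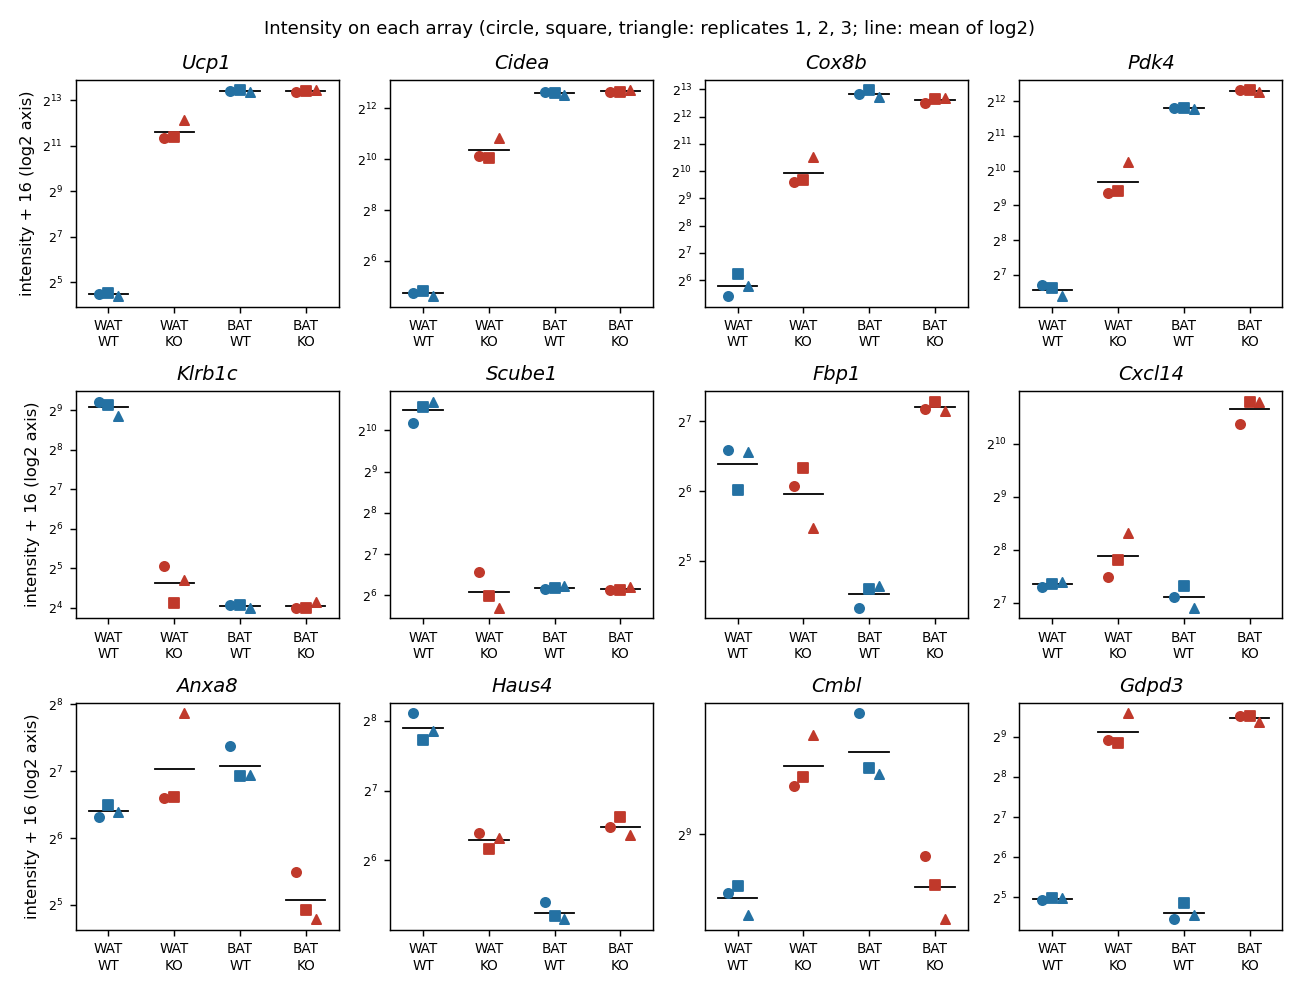
Intensity + 16 on each array (log2 axis) of 12 genes in WAT and BAT of WT (blue) and KO (red), with 1 symbol per replicate and a line at the mean of log2 values. In Ucp1, Cidea, Cox8b and Pdk4 the WAT arrays of KO lie between those of WAT of WT and BAT, in Klrb1c and Scube1 the WAT arrays of KO lie near those of BAT, and in Haus4 and Cmbl the genotypes are ordered oppositely in the depots.

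Genes of fatty acid breakdown and the TCA cycle had the same direction with smaller values. In fatty acid oxidation, 6 of 24 measured genes had a called negative interaction and 0 a positive one (median -0.84; 0.276% of all genes were called negative). In WAT 16 of the 24 rose, against 1.27% of all genes, and in BAT 0 were called by limma. Hadhb, of the mitochondrial trifunctional protein, went from 619.7, 691 and 568 to 1990.1, 1965 and 3141 in WAT and from 8016, 7702 and 7635 to 8607, 9112 and 8798 in BAT. The WAT difference of 1.86 was called, the BAT difference of 0.18 was not although its arrays were apart, and the interaction was -1.68 (adjusted p = 0.00517). The other called members were Pdk4, Slc25a20, the acyl-CoA dehydrogenases Acadvl (-1.58) and Acadl (-1.36) and the thiolase Acaa2 (-1.22). Cpt1a, the liver-type gate of mitochondrial fatty acid import, had 0.58 (adjusted p = 0.503). In the TCA cycle list 2 of 20 were called, both subunits of succinyl-CoA ligase: Sucla2 (-1.39, adjusted p = 0.0227) and Suclg1 (-0.99, 0.0445). Sucla2 was lost without any 1 of 7 arrays (adjusted p up to 0.0808) and Suclg1 without any 1 of 9 (up to 0.138). Without replicate 3 of WAT of KO, 13 fatty acid oxidation genes, 11 TCA cycle genes and 7 respiratory chain genes were called, all negative (0.893% of all genes), with medians of -0.58, -0.50 and -0.41.

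In the respiratory chain, 0 of 39 genes were called by limma, while 33 had an unadjusted p under 0.05 (9.46% of all genes did) and all 39 interactions were negative, between -0.92 and -0.09 (median -0.58). Cox5a, a nuclear-encoded cytochrome c oxidase subunit, came closest. Its intensity was 458, 389 and 382 in WAT of WT, 619, 687 and 929.8 in WAT of KO, 3029.9, 2877 and 3213 in BAT of WT and 2817, 2836 and 2928 in BAT of KO. The genotypes were apart in WAT and overlapped in BAT, with an interaction of -0.91 (adjusted p = 0.0709), and it was called without replicate 3 of WAT of KO (-0.74, adjusted p = 0.0137) or without replicate 1 of that group (-1.03). Adipocyte genes downstream of PPARγ that white and brown fat share had 0 of 24 called and a median of -0.36, with 2 unadjusted p under 0.05. Among them Gpd1, glycerol phosphate dehydrogenase, had -1.08 (adjusted p = 0.173), and it was called without replicate 3 of WAT of KO (-0.77, adjusted p = 0.00468), where the median of the list was -0.05.

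Other genes higher in WAT alone included Phospho1, a phosphatase of phosphocholine and phosphoethanolamine, at 27.8, 25.5 and 23.5 in WAT of WT and 120.4, 126 and 200.4 in WAT of KO (interaction -1.78, adjusted p = 0.00228). Kng2, a kininogen (-1.81), Coq8a, which acts in coenzyme Q synthesis (-1.33), and Chchd10, a mitochondrial intermembrane protein (-1.0), belonged to the pattern too. These genes, chosen here after their values were seen, were higher in BAT than in WAT. F5, coagulation factor V, was not: it went from 35.6, 38.4 and 35.6 to 112, 107 and 196 in WAT and lay at 30.1, 24.4 and 27.7 in BAT of WT and 23.9, 21.1 and 29.4 in BAT of KO. F5 in WAT of KO was thus above every BAT array. Atp1a4, a sodium pump subunit known from sperm, went from 344, 313 and 305 to 1250.1, 1309 and 3014 in WAT, against 754, 685 and 714 and 714, 809 and 785 in BAT, so that it was higher in BAT than in WAT in WT and lower in KO. Over the 33 genes the median gap BAT minus WAT was 3.79 in WT and 2.35 in KO, and the same arrays enter these gaps and the interaction. Between the depots, 50.6% of all genes were called in WT (20.3% higher and 30.3% lower in BAT) and 47% in KO (20.2% and 26.8%).

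Markers of skeletal muscle, a tissue next to brown fat pads that uses some of the same isoforms, also had mostly negative interactions. Both depots entered these: the median difference was 0.73 in WAT and -0.96 in BAT, beside 1.47 and 0.10 for the brown-fat list. Negative values numbered 25 of 26 in the interaction and 23 of 26 in BAT, against 8752 and 8518 of all 19933 genes. No BAT difference of a muscle marker was called. None of 26 was called in the interaction by limma, 16 had an unadjusted p under 0.05 (9.46% of all genes did), and the median was -1.64, or -1.58 without replicate 3 of WAT of KO. Their summed intensity was 1035, 1148 and 1116 in WAT of WT, 1568, 3081 and 2314 in WAT of KO, 13610, 23232 and 53637 in BAT of WT and 8165, 24611 and 10526 in BAT of KO. All WAT arrays of KO were above those of WT, the BAT arrays overlapped, and the spread within BAT was wide. Myh4, a fast myosin, had 2.39, 1.73 and 4.17 in WAT of WT and 43.5, 172 and 126 in WAT of KO (interaction -3.51, adjusted p = 0.0785; called without replicate 1 of WAT of KO at -3.99, adjusted p = 0.0323). In WAT of WT 5 muscle genes (Myh2, Myh4, Tnnt3, Neb and Ttn) were under 10 units on all arrays, and in WAT of KO 0 were. The part of muscle RNA in the brown-fat values was not tested, and in bulk tissue a change in the number of cells of a type and a change in RNA per cell cannot be told apart. The brown-fat list summed to 2062, 2093 and 2148 in WAT of WT, 9764, 10020 and 16207 in WAT of KO, 54903 to 59880 in BAT of WT and 59022 to 62966 in BAT of KO.

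**Figure D3:**
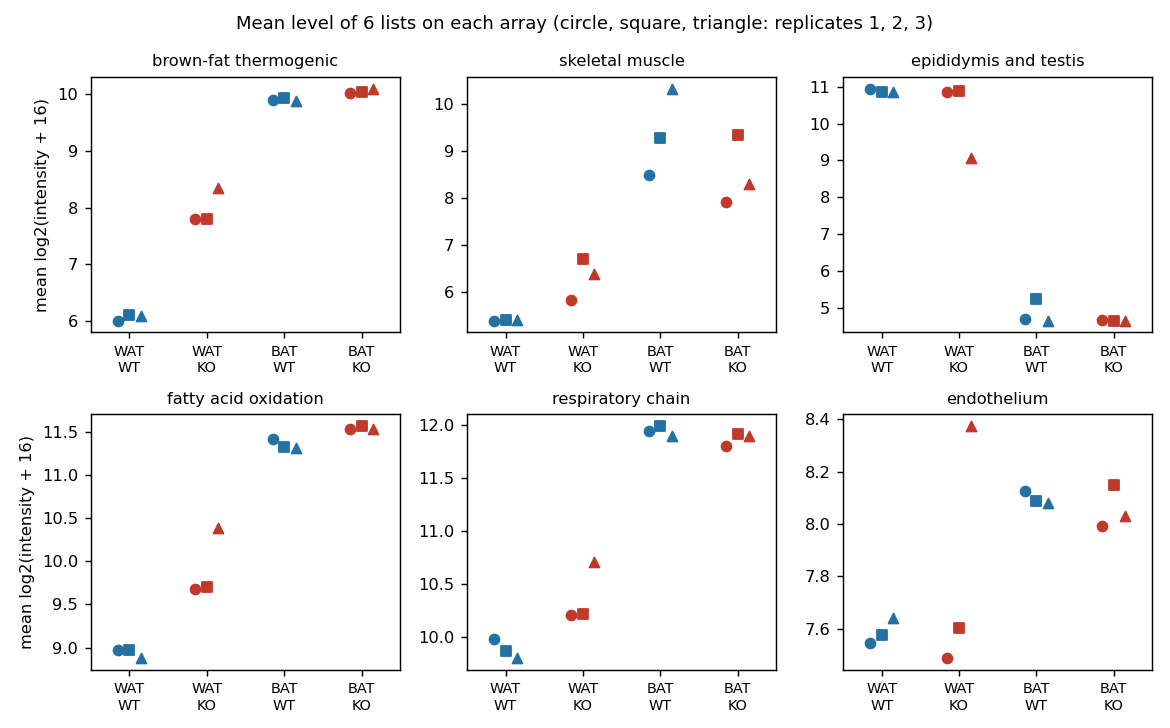
Mean log2(intensity + 16) of the measured members of 6 gene lists on each array (blue WT, red KO, 1 symbol per replicate). Replicate 3 of WAT of KO (triangle) is the highest array of its group for the brown-fat, fatty acid oxidation, respiratory chain and endothelium lists and the lowest for the epididymis list, and BAT arrays differ most among themselves in skeletal muscle genes.

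The pattern of lower expression in WAT alone was led by Klrb1c and Scube1, which in WAT of KO lay near their level in BAT. Klrb1c, a lectin-like receptor of natural killer cells, measured 579, 549.9 and 445 in WAT of WT and 17.2, 1.48 and 10.2 in WAT of KO. In BAT all 6 arrays were at 1.59 or below, under the added constant of 16, so a fall in BAT could not have been seen. The interaction was 4.44 (SE 0.27, adjusted p = 9.08e-06), and 5.89 and 3.00 with constants of 1 and 64, both called. Gm5148, Mcoln3, Rimklb and 9230020A06Rik, described below, share that limit. They averaged 4.82, 6.44, 2.48 and 11.9 units in BAT of WT. The gap BAT minus WAT of Klrb1c was -5.02 in WT and -0.58 in KO, and the gap in KO was still called (limma adjusted p = 0.02335). Of 17 lymphocyte and natural killer cell markers Klrb1c was the only one called in the interaction, and the median interaction of the list was -0.04. Ms4a1, the B cell antigen CD20, was under 10 units on every BAT array as well.

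Scube1, a secreted glycoprotein with EGF-like and CUB domains, measured 1146, 1503 and 1642 in WAT of WT and 79.4, 47.7 and 35.9 in WAT of KO. In BAT it lay between 54.1 and 58.5 on all arrays. The WAT genotypes were far apart and the BAT arrays overlapped (interaction 4.37, adjusted p = 9.09e-06; depot gap -4.30 in WT and 0.07 in KO). The predicted genes Gm609, 9230020A06Rik and Gm5148 had the same form: they averaged 321, 196 and 173 units in WAT of WT and 3.18, 6.02 and 5.49 in WAT of KO. Their interactions were 3.97 (adjusted p = 9.08e-06), 3.20 (2.56e-05) and 3.03 (1.04e-05). In BAT of WT Gm609 had 28.2, 28 and 33.1, so that in WAT of KO it was below BAT.

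Krt23, a keratin of epithelia, measured 1165, 869 and 1079 in WAT of WT and 221, 210.2 and 39.1 in WAT of KO. Mcoln3, an endolysosomal cation channel, went from 284, 285 and 351 to 60.3, 63 and 8.46, and Rimklb, a synthetase of N-acetylaspartylglutamate, from 205, 278 and 270.2 to 51.5, 58.1 and 16.1. In each of the 3 the KO arrays were below all WT arrays and replicate 3 of KO was far below its group. Interactions were 3.09 (adjusted p = 0.0498), 2.72 (0.033) and 2.51 (0.00866), and without that replicate they were 2.40 (4.79e-05), 2.17 (5.4e-05) and 2.13 (5.76e-05). Krt23 and Mcoln3 were not called when any 1 of the WT arrays of WAT or any 1 of the BAT arrays was left out (highest adjusted p 0.141 and 0.112). The same array was low for the 15 measured epididymis and testis markers, which summed to 67177 to 71663 in WAT of WT, to 71509, 74760 and 21386 in WAT of KO, and to at most 394 in BAT. None of the 15 was called in the interaction by limma, 0 had an unadjusted p under 0.05, and the median was 0.39. Without that array 1 was called, Spink5 (-0.68, adjusted p = 0.0189), and the median was -0.28. The part of epididymal tissue in the values of these genes was not tested.

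Among the remaining genes lower in WAT alone, chosen here after their values were seen, were Tnnt2, the cardiac troponin T (2.24, adjusted p = 0.00125), Cyp2f2, a cytochrome P450 (2.41), Cdsn, an adhesion protein of cornified epithelium (1.94), Cbs, cystathionine beta-synthase (0.98), and Stmn1, a regulator of microtubules (1.37). Stmn1 is the brightest of these: it went from 2772, 2641 and 3334 to 1535, 1399 and 1068 in WAT and from 734, 652 and 793 to 848, 888 and 842 in BAT, so that KO was lower in WAT and higher in BAT on every array, with the BAT difference of 0.24 not called. Immune genes in the pattern were Fcgr2b, the inhibitory IgG receptor (1.38), Cfi, a complement protease (1.77), Aoah, which inactivates endotoxin (0.92), and Itgae, an integrin of mucosal lymphocytes (1.09). The 18 macrophage markers gave no call by limma and 2 unadjusted p under 0.05, with a median of 0.05. Over the 35 genes of the pattern the median gap BAT minus WAT was -1.98 in WT and -0.15 in KO, gaps that again share arrays with the interaction.

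**Figure D4:**
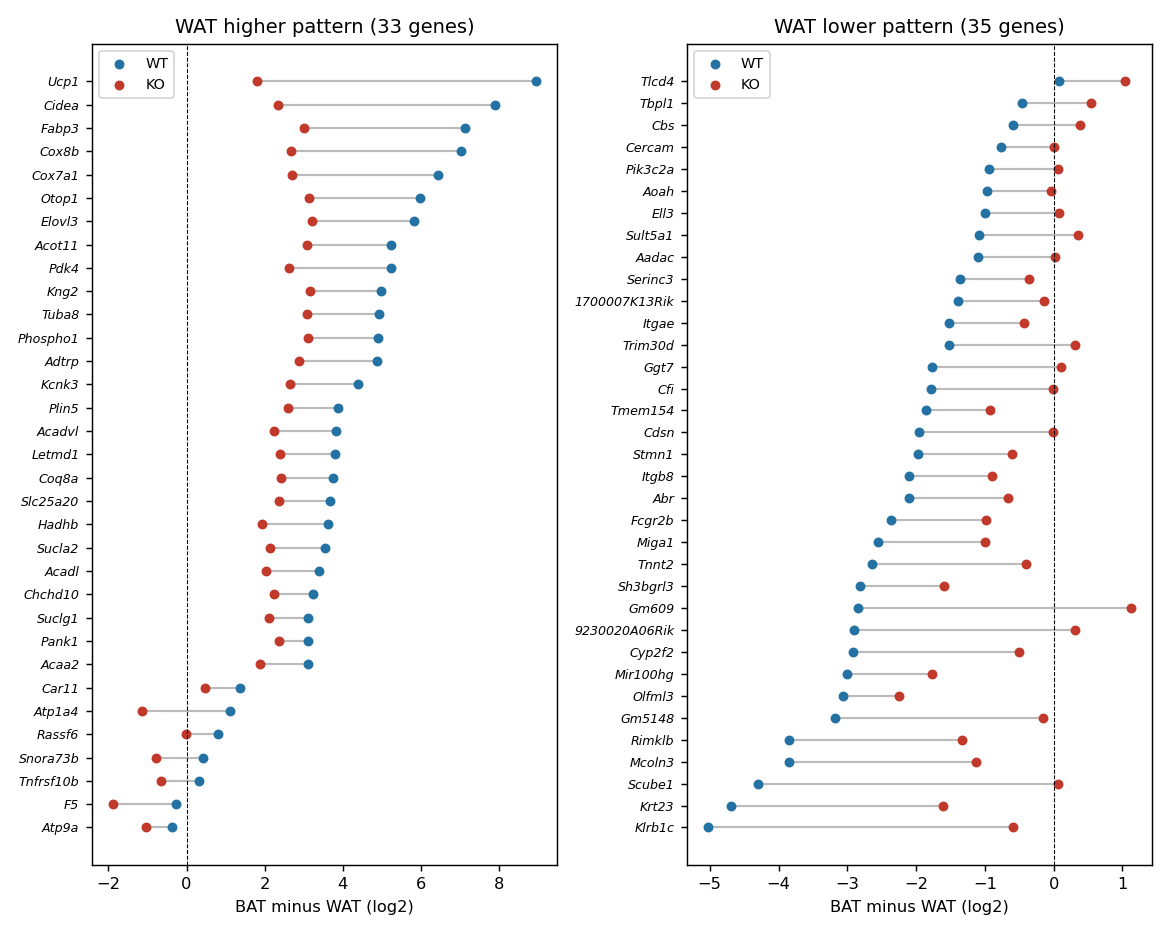
Difference between the depots, BAT minus WAT (log2), for WT (blue) and KO (red) for the 33 genes higher and the 35 genes lower in WAT alone, joined by a line whose length is the size of the interaction. The median gap was 3.79 in WT and 2.35 in KO on the left and -1.98 and -0.15 on the right.

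In BAT alone, 19 genes were higher in KO. Fbp1, fructose bisphosphatase of gluconeogenesis, measured 4.01, 8.02 and 8.91 in BAT of WT and 128, 139.8 and 125 in BAT of KO. In WAT it was 80.1, 48.3 and 78.5 in WT and 51, 64.1 and 28.1 in KO. The BAT groups were far apart and the WAT groups overlapped, with an interaction of 3.12 (SE 0.30, adjusted p = 0.000405). Fbp1 was the only called gene among 20 of glucose uptake and glycolysis, whose median interaction was -0.17. Its paralog Fbp2, the muscle form, rose in both depots (0.73 in WAT and 1.22 in BAT) and was not called in the interaction (0.49, adjusted p = 0.44). Fbp2 was called as well without replicate 3 of WAT of KO (0.67, adjusted p = 0.0178), and the list's median was -0.04.

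Cxcl14, a chemokine, measured 122, 144 and 103 in BAT of WT and 1313, 1748 and 1762 in BAT of KO. In WAT it was 142, 147 and 153 in WT and 164, 209 and 303 in KO. Its KO arrays were higher in both depots, by 3.54 in BAT and by an uncalled 0.52 in WAT (interaction 3.02, adjusted p = 0.000248). Gldn, gliomedin, known from the node of Ranvier in nerve, went from 86, 74.3 and 83.8 to 422, 522 and 493 in BAT. In WAT it went from 63.7, 103 and 93.9 to 35.6, 44.1 and 63.9. The direction in WAT was negative, with groups that barely overlapped (difference -0.69, adjusted p = 0.0707), and the interaction was 3.03 (adjusted p = 0.000106). None of 9 Schwann cell and nerve markers was called in the interaction by limma (2 unadjusted p under 0.05).

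Olig1, a transcription factor known from oligodendrocytes, went from 7.45, 12.3 and 19.7 to 78.6, 83.5 and 66.1 in BAT and lay between 15.8 and 22.2 on the WAT arrays (interaction 1.79, adjusted p = 0.00131). Cfap20dc measured 55.1, 21.4 and 21.1 in BAT of WT and 81.1, 89.8 and 80.6 in BAT of KO, and 121, 108 and 129 and 78.7, 65 and 55.9 in WAT. The genotypes were apart in both depots with opposite order, the WAT difference of -0.72 was not called, and the interaction was 1.83 (adjusted p = 0.0183, not called without any of 5 arrays in turn, at up to 0.0656). Metabolic genes among the others, chosen here after their values were seen, were the glucose transporter Slc2a12 (1.04), the aquaporin Aqp11 (1.71), glutathione reductase Gsr (0.77), the mitochondrial dicarboxylate carrier Slc25a10 (1.33), the phosphatidate phosphatase Lpin2 (0.96) and the lipid transfer protein Mttp (0.80). Gsr went from 234, 208 and 209 to 472, 459.9 and 480.1 in BAT and from 419.6, 416 and 441 to 516, 545 and 513 in WAT, higher in every KO array of both depots. The median gap BAT minus WAT of the 19 genes was -0.92 in WT and 0.19 in KO, from arrays that the interaction also used.

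The 17 genes lower in BAT alone were led by Anxa8, an annexin. It measured 149.8, 106 and 106 in BAT of WT and 29, 14.4 and 11.5 in BAT of KO, and 63.5, 74 and 67.8 in WAT of WT and 81.1, 82 and 218 in WAT of KO. The BAT genotypes were apart, the WAT arrays of KO were all above those of WT, and replicate 3 of WAT of KO was far above its group. The interaction was -2.64 (adjusted p = 0.0177) with that array and -2.22 (adjusted p = 0.000657) without it, and leaving out any of 5 other arrays raised the adjusted p to between 0.0586 and 0.0612. Vat1l went from 341, 296 and 214 to 86.2, 91.5 and 92.2 in BAT and lay between 24.7 and 43.6 in WAT (interaction -1.62, adjusted p = 0.00857). Pxmp2, a channel of the peroxisomal membrane, went from 406, 405 and 355 to 124, 128 and 97 in BAT and from 234, 233 and 189 to 173, 190.5 and 239 in WAT. Its WAT arrays overlapped and its BAT arrays were apart (interaction -1.50, adjusted p = 0.00458).

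Niban1, a stress-induced regulator, went from 264, 199.7 and 220.1 to 55.9, 65.6 and 50.7 in BAT (-1.45, adjusted p = 0.0087). Rnf150, a ring finger protein, went from 64, 91.9 and 99.9 to 22.8, 28.2 and 18.7 in BAT and had the weakest support of those named (-1.45, adjusted p = 0.0498, lost without any 1 of 9 arrays, at up to 0.156). Apoe, the apolipoprotein of remnant clearance and the brightest gene of the pattern, went from 4804, 4291 and 4166 to 1858, 1504 and 1359.8 in BAT. In WAT it went from 7126, 6716 and 6902 to 5225, 5447 and 7638, with overlap, and its interaction was -1.29 (adjusted p = 0.0188). Signalling receptors in the pattern, with Apoe chosen here after their values were seen, were the neuregulin receptor Erbb4 (-0.84), the thrombin receptor F2r (-0.82) and the nucleotide receptor P2ry2 (-1.11).

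Rsad2, the antiviral enzyme viperin, was the only called gene of 20 in the interferon response list. It measured 159.6, 153 and 176 in BAT of WT and 69.4, 62.2 and 60.5 in BAT of KO, and 47.5, 44.1 and 50.9 and 40.1, 41.6 and 51.1 in WAT. The BAT arrays were apart and the WAT arrays overlapped (interaction -1.08, adjusted p = 0.00379). In BAT 4 of the 20 fell (Rsad2, Bst2, Rtp4 and Irf7) and in WAT 1 fell (Oasl2), against 0.813% and 1.15% of all genes. The interactions of Bst2, Rtp4 and Irf7 were -0.76, -0.59 and -0.20, none called, so that a depot difference was shown for Rsad2 alone among them.

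Opposite effects in the depots were called for 3 genes. Haus4, a subunit of the augmin complex that nucleates microtubules on the spindle, measured 259.9, 195 and 216 in WAT of WT and 68.3, 55.9 and 63.6 in WAT of KO. In BAT it measured 26.4, 20.7 and 19.6 in WT and 73, 82.4 and 65.9 in KO. It was thus lower without Per2 in WAT (-1.60) and higher in BAT (1.23), with no overlap in either depot, and KO arrays of both depots lay between 55.9 and 82.4 (interaction 2.83, adjusted p = 9.08e-06).

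Lrrc23, a radial spoke protein of cilia and sperm tails, went from 65, 72.4 and 70.8 to 23.8, 38.1 and 33.1 in WAT and from 11.9, 15.2 and 14.8 to 27.5, 29 and 27 in BAT (interaction 1.40, adjusted p = 0.00142). Cmbl, a cytosolic hydrolase, ran the other way: from 406, 416 and 377 to 584, 603 and 693 in WAT and from 747, 622 and 609 to 461, 417 and 371 in BAT. Its gap BAT minus WAT was 0.70 in WT and -0.57 in KO, and the interaction was -1.27 (adjusted p = 0.00379). In all 3 genes the arrays of the genotypes were apart in both depots. The genes were picked by calls from the same arrays, so this is no separate support. The calls of the interaction held whichever array was left out.

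Unequal effects of the same direction were called for 7 genes. BC018473, to which no role is assigned here, measured 0.0478, 10.7 and 0.0648 in WAT of WT and 2997, 2487 and 579.6 in WAT of KO. In BAT it measured 4.39, 17 and 8.28 in WT and 140.1, 161 and 157 in KO. The KO arrays were higher in both depots, by more in WAT, where replicate 3 was the lowest of its group (interaction -3.71, adjusted p = 0.0348). Without that array the interaction was -4.44 (adjusted p = 1.09e-05), and without any 1 of the 11 others it was not called.

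Abhd1 and Abhd3, members of the alpha/beta hydrolase family, rose by more in BAT. Abhd1 went from 63.6, 54.5 and 67.3 to 272, 276 and 334 in WAT and from 86.6, 64.8 and 67.4 to 882, 981 and 1021 in BAT (interaction 1.47, adjusted p = 0.00228). Abhd3 rose by 0.41 in WAT and by 1.69 in BAT (interaction 1.28, adjusted p = 0.00102). Apobec3, a cytidine deaminase that restricts retroviruses, fell by more in WAT, from 438, 462 and 501 to 103, 90.3 and 112, than in BAT, from 61.2, 64.6 and 71.3 to 28.3, 24.4 and 40.4 (interaction 1.23, adjusted p = 0.00882). With a constant of 1 its interaction was 1.11 and not called (adjusted p = 0.106). Trim12a, a tripartite motif protein, fell in WAT from 152, 135 and 152 to 8.73, 4.74 and 2.82 and in BAT from 67.5, 93.1 and 77.3 to 13.6, 8.23 and 6.67. All KO arrays were below all WT arrays in both depots, and the interaction of 1.03 (adjusted p = 0.0425) was lost without any 1 of 9 arrays. The other members were Slc27a2 and Kdelr3, a receptor that returns proteins to the endoplasmic reticulum (0.73, adjusted p = 0.039).

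In 4 genes the interaction was called and neither depot's difference was. Prim1, the DNA primase subunit (0.88, adjusted p = 0.0403), and Crp, C-reactive protein (0.64, 0.0398), were lower in WAT and higher in BAT of KO, whereas Nim1k, a protein kinase (-0.85, 0.0364), and Mrpl34, of the mitochondrial ribosome (-0.79, 0.026), were higher in WAT and lower in BAT. Mrpl34 measured 101, 94.9 and 91.2 in WAT of WT, 116, 128 and 151 in WAT of KO, 863, 818 and 774 in BAT of WT and 593, 642 and 615 in BAT of KO. The genotypes were apart in both depots in all 4 genes, which were picked by their interaction on the same arrays, so this is no separate support. Each of the 4 was lost without any 1 of 9 arrays.

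Among genes called between the genotypes in both depots, most had no called difference between the depots, which does not show that the effects were equal. Of 83 genes called in both, 80 had the same direction, and in 73 of the 80 the interaction was not called (38 higher and 35 lower in KO). Among the 73, the 95% interval of the interaction lay within 1 log2 unit of 0 for 60 genes and within 0.5 for 30. Gdpd3, a lysophospholipase D, measured 14.2, 15.7 and 15.3 in WAT of WT and 468, 448 and 756 in WAT of KO. In BAT it measured 5.76, 12.7 and 7.33 in WT and 719, 714 and 643 in KO. The genotypes were far apart in both depots, with log2 differences of 4.17 and 4.86 (interaction 0.69, 95% interval 0.16 to 1.22, adjusted p = 0.368), and without replicate 3 of WAT of KO the interaction was 0.92 and called (adjusted p = 0.00822).

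Rbp7, a retinol-binding protein of fat and endothelium, went from 56.5, 32.2 and 51.9 to 276, 256 and 677 in WAT and from 63.5, 120.4 and 60.8 to 566, 580.3 and 569 in BAT. Its differences were 2.62 and 2.64, and the interval of the interaction ran from -0.99 to 1.03. Gbp2b, an interferon-induced GTPase (-0.24, -0.97 to 0.48), and Sycp3, of the synaptonemal complex (0.10, -0.83 to 1.04), rose in both depots as well. AI506816, to which no role is assigned here, fell in both, from 1265, 758 and 413 to 82.7, 13.4 and 9.24 in WAT and from 197, 90.7 and 88.6 to 7.96, 4.29 and 2.46 in BAT. Its arrays varied widely within groups, and the interval of its interaction was -0.08 to 3.05.

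A call in 1 depot and none in the other seldom came with a called difference between the depots. Of 399 genes called in WAT alone, 68 were called in the interaction (17.0%) and 331 were not. Of 260 called in BAT alone, 36 were (13.8%) and 224 were not. Over all genes, 0.592% were called in the interaction and 9.46% had an unadjusted p under 0.05. Among the 331, 231 had an unadjusted interaction p under 0.05 and 271 had the same sign in BAT. Among the 224, 158 had an unadjusted p under 0.05 and 183 the same sign in WAT. The 95% interval lay within 1 log2 unit of 0 for 157 and 145 of these genes. They were picked by a genotype difference on arrays that also form the interaction, so these counts are no separate support. The share of all genes with the same sign in both depots was not counted. Across all genes the genotype differences in WAT and BAT, which share no arrays, had a Spearman correlation of 0.21 and a Pearson correlation of 0.26, given as a description over genes that are not independent.

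Clock genes showed no called depot dependence. Of 13 clock genes whose promoters carry E-box or D-box elements, 0 were called by limma, 0 had an unadjusted p under 0.05, and the median interaction was -0.24. The largest positive and negative values were those of Ciart, a repressor of the clock (0.51, 95% interval -0.30 to 1.32), and Nr1d1, the receptor REV-ERBα (-0.51, -1.42 to 0.41). Per1 had 0.09, Dbp -0.45, Cry1 -0.07 and Cry2 -0.46. Among 5 clock activators and RORE-driven genes, 0 were called and 1 had an unadjusted p under 0.05: Arntl2, a paralog of BMAL1 (-0.54, adjusted p = 0.398).

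White adipocyte genes gave 0 calls of 18 by limma, 4 unadjusted p under 0.05 and a median of 0.27. Leaving out replicate 3 of WAT of KO, 2 were called: Hp, haptoglobin (1.71, adjusted p = 0.00222), and Npr3, a natriuretic peptide receptor (0.73, adjusted p = 0.00531), with 0.973% of all genes called positive in that fit. Agt, angiotensinogen, measured 834, 691 and 702 in WAT of WT, 605, 687 and 731 in WAT of KO, 9.04, 6.62 and 26.9 in BAT of WT and 31.6, 31.7 and 30.8 in BAT of KO. In WAT the genotypes overlapped and in BAT all KO arrays were above all WT arrays, with 1 WT array close below (interaction 0.85, adjusted p = 0.307; called without replicate 3 of BAT of WT at 1.13, adjusted p = 0.0129). Lep, Retn and Hp, products secreted by white fat, had -0.50, 0.66 and 1.26 with all arrays, none called. De novo lipogenesis gave 0 calls of 19 (median -0.08, 1 unadjusted), where Acacb, the mitochondrial acetyl-CoA carboxylase, had -1.05 (adjusted p = 0.303). Me1, malic enzyme, was called without replicate 3 of WAT of KO (0.73, adjusted p = 0.0105).

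Cell cycle genes had a median of 0.41, with 22 of 23 interactions positive, 0 called by limma and 9 at an unadjusted p under 0.05 (9.46% of all genes). In WAT 5 of the 23 fell (Cdk1, Top2a, Kif20a, Bub1b and Aurkb; 1.15% of all genes fell) and in BAT 0 were called. Cdk1, the mitotic kinase, had the smallest p (0.89, adjusted p = 0.156). Cholesterol synthesis genes had a median of 0.33, 0 calls of 18 and 7 unadjusted p under 0.05. Cyp51, lanosterol demethylase, measured 322, 319.8 and 323 in WAT of WT and 219.6, 205 and 129 in WAT of KO and overlapped in BAT (interaction 0.75, adjusted p = 0.327). Glucocorticoid-induced genes gave 1 call of 15, Pdk4, and a median of -0.02. Zbtb16, a zinc finger transcription factor, was called too without replicate 3 of WAT of KO (0.59, adjusted p = 0.0414), where the median was 0.11. Immediate early genes gave 0 of 21 (1 unadjusted), with the smallest p for Nr4a3, a nuclear receptor induced by cold and adrenergic signals (0.69, adjusted p = 0.157). Ribosomal protein genes gave 0 of 20 (0 unadjusted, median 0.16) and matrix genes 0 of 22 (1 unadjusted, median 0.12), where Pdgfrb, a receptor of pericytes and fibroblasts, had -0.66.

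Markers of other cell types gave few calls by limma. Endothelial markers gave 0 of 16, with all 16 interactions negative (median -0.25, 1 unadjusted, Emcn at -0.62). Without replicate 3 of WAT of KO their median was 0.03, and the medians of the mesothelial markers, the Schwann cell markers and the clock activators also changed sign, from -0.08 to 0.09, from 0.09 to -0.09 and from -0.06 to 0.13. Mesothelial markers gave 0 of 13 (1 unadjusted, Upk1b at 0.79), Schwann cell markers 0 of 9 (Ncmap, a myelin protein, at 1.30, adjusted p = 0.121) and erythroid markers 0 of 3 (0 unadjusted). The plot of all lists shows the brown-fat, fatty acid oxidation, TCA cycle, respiratory chain and skeletal muscle lists to the left of 0.

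**Figure D5:**
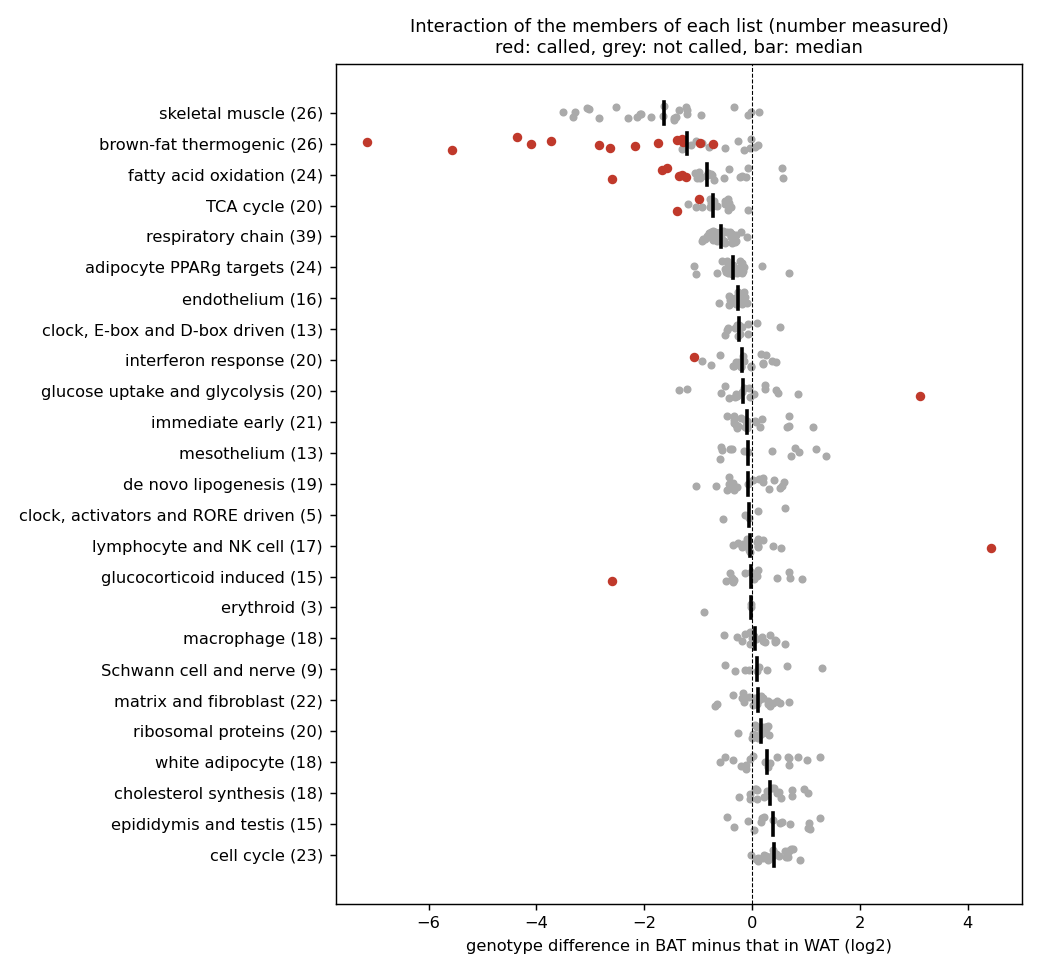
Interaction (log2) of every measured member of 25 gene lists, with called members in red, others in grey and a bar at the list's median. The skeletal muscle list has the lowest median (-1.64) with no called member, the brown-fat list holds 14 called members, and the cell cycle list has the highest median (0.41).

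Promoter windows were available for 95 of the 118 called genes, as 120 windows. The hexamer AGGTCA was found in 25 of the 120 (20.8%) and in 16.3% of all 32851 windows of that length, and the E-box in 11 (9.17%) and 7.15%. The D-box and the PPAR element were found in 0 of the 120 and in 0.938% and 0.0396% of all windows. In the genes higher in WAT alone the hexamer was in 13 of 36 windows (36.1%), the Ucp1 window printed above among them, and in those lower in WAT alone in 5 of 38 (13.2%), among them that of Klrb1c. Genes higher in BAT alone had it in 2 of 18 windows and those lower in BAT alone in 3 of 16. Several windows can belong to 1 gene, and these matches are a description of letters. The called genes were spread over the chromosomes, at 0.135% of genes on X and, among the autosomes, between 0.258% on chromosome 9 and 0.954% on chromosome 3, where 8 of 9 called genes were lower in WAT alone.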

How the data were processed

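The authors deposited 1 table of probe-set intensity values for the 12 arrays, made with PLIER per the submitters' processing notes, on a linear scale. No source used here states the PLIER version or whether arrays were scaled to each other. The identifiers in the authors' deposited comparison tables, made with Cyber-T 8.01 and hdarray 3.71 in R 2.2.1 per the file headers, were used only to find the 28925 probe sets tested. Of the 35557 probe sets, 21789 name 1 gene, 1621 several and 12147 none in the platform annotation, and 21698 matched RefSeq by gene ID. Of 21776 tested probe sets with 1 gene, the one with the highest mean was kept for each of 19933 genes. Where probe sets of a gene disagree is not shown by this choice; 139 of the 28925 were called when all were fitted, 21 of them without exactly 1 gene.

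Values were analysed as log2(intensity + 16) in R 4.3.3 with limma 3.58.1, as 4 group means with moderated variances and Benjamini-Hochberg adjustment over all 19933 genes. Calls were made at an adjusted p under 0.05. The arrays carry no read depth, and 3 per group limit the precision. The code was tested on simulated data.

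The 25 lists (464 of 514 entries measured), the patterns and the members were chosen with earlier results of these data known. Genes were named by rule: Per2, the 8 largest interactions of each WAT pattern, the 5 largest of each other pattern, the 5 largest changes common to both depots, and up to 3 called members per list or its smallest p. Other list and pattern members are named after their values were seen. Alternatives were 12 fits leaving out 1 array each and 13 others. Arrays were not treated as paired by replicate number. Between equally numbered arrays, correlations of deviations from the group means lay between -0.12 and 0.09. With 3 arrays per group these values cannot decide whether equal numbers share an animal.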

Additional observations from a re-analysis of the deposited data

Results flagged for a closer look

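The genotype difference in BAT differed from that in WAT, by the interaction test itself (limma, adjusted p under 0.05), for the 43 named genes below. Groups of 3 arrays are too small for a test of outlying arrays. All values are log2 differences, BAT minus WAT.

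Among genes higher in WAT alone, the interaction was -7.14 for Ucp1, -5.56 for Cidea, -4.36 for Cox8b, -4.10 for Fabp3, -3.73 for Cox7a1, -2.83 for Otop1, -2.63 for Elovl3, -2.59 for Pdk4, -1.68 for Hadhb, -1.22 for Acaa2, -1.39 for Sucla2 and -0.99 for Suclg1. Among genes lower in WAT alone, it was 4.44 for Klrb1c, 4.37 for Scube1, 3.97 for Gm609, 3.20 for 9230020A06Rik, 3.09 for Krt23, 3.03 for Gm5148, 2.72 for Mcoln3 and 2.51 for Rimklb.

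Among genes higher in BAT alone, it was 3.12 for Fbp1, 3.03 for Gldn, 3.02 for Cxcl14, 1.83 for Cfap20dc and 1.79 for Olig1, and among those lower in BAT alone -2.64 for Anxa8, -1.62 for Vat1l, -1.50 for Pxmp2, -1.45 for Rnf150, -1.45 for Niban1 and -1.08 for Rsad2. Opposite effects gave 2.83 for Haus4, 1.40 for Lrrc23 and -1.27 for Cmbl. Unequal effects of 1 direction gave -3.71 for BC018473, 1.47 for Abhd1, 1.28 for Abhd3, 1.23 for Apobec3 and 1.03 for Trim12a. With neither depot called, the values were 0.88 for Prim1, -0.85 for Nim1k, -0.79 for Mrpl34 and 0.64 for Crp.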

How the results depend on the processing

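None of the 118 interactions reversed under an alternative on a log scale. On untransformed intensities 11 of the 118 reversed, among them Otop1 (122 units), Elovl3 (1104) and Pdk4 (739), and 121 genes had a called positive interaction. Array weights, which gave replicate 3 of WAT of KO a weight of 0.115, called 439 genes (241 positive, 198 negative), 1630 in WAT and 713 in BAT. Calling at 1.5-fold and an unadjusted p under 0.05 gave 796 (443 and 353), with 836 in WAT. Among genes differing under 2-fold between the depots in WT, where fewer genes were tested, 27 were called (15 and 12), with 144 in WAT. The brighter genes alone gave 36 positive calls, and all tested probe sets 755 calls in WAT. With the replicate number as a fixed replicate block, 76 genes were called, 32 of them negative, 74 shared with the 118, with 8 lower in BAT alone, 3 in the same direction and 0 in neither depot by limma (1885 genes had an unadjusted p under 0.05 without the block). A random replicate block gave 109. Constants of 1 and 64 gave 95 and 136 calls, which lost 10 and 4 of the 43 named genes, and quantile normalization 104 (46.2% positive, against 53.4%). Leaving out 1 array gave 59 to 372 calls, 37 to 194 positive and 22 to 178 negative, 225 to 876 in WAT and 165 to 1033 in BAT. By pattern these fits gave 14 to 108 higher and 21 to 94 lower in WAT alone, 11 to 74 higher and 5 to 47 lower in BAT alone, 1 to 14 opposite, 2 to 23 in the same direction and 0 to 12 in neither. Calls in BAT moved with WAT arrays left out because the 4 groups share 1 estimate of the spread of each gene. The cause of the other moves was not tested.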
